A study of Homo sapiens with 6 samples.

Results

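The ATG8 genes and the autophagy cargo receptors are the gene families that link material marked for breakdown to the growing autophagosome. They were followed here by RNA sequencing in H460 cells, an established human lung carcinoma line, whose genotype is labelled WT. The members were the 10 genes MAP1LC3A, MAP1LC3B, GABARAP, GABARAPL1 and GABARAPL2 (5 ATG8 genes) and SQSTM1, NBR1, OPTN, CALCOCO2 and TAX1BP1 (5 cargo receptors), found by symbol among the 31762 genes of the deposited count table. None of these symbols stood on more than 1 row. The groups were 3 libraries of control cells, whose labels name no vehicle, and 3 libraries of cells exposed to 20 µM fluoxetine, a selective serotonin reuptake inhibitor, for 24 h. The labels do not say whether replicates came from separate cultures, so p-values measure the spread between these libraries, which may be technical, and a single cell line stands for the tumour type.

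Autophagy wraps part of the cytoplasm in a double membrane and delivers it to the lysosome. ATG8 proteins, the LC3 and GABARAP subfamilies, are trimmed by ATG4 proteases and attached to a lipid of that membrane, where they help it to grow, to close and to fuse. Cargo receptors such as p62, the product of SQSTM1, bind ubiquitin on the cargo with one end and ATG8 on the membrane with the other, and are themselves degraded with the cargo. For that reason LC3B and p62 serve widely as protein markers of autophagy, and the study measured both as proteins. The comparison of fluoxetine with control asks how the RNA of these members stood beside those markers.

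The libraries held 19343565 to 27823667 counts in the control group and 16157507 to 17113538 with fluoxetine, where each library was shallower than any control library. A count of 3, the limit that a count of 0 allows, was worth 0.108 to 0.186 CPM of the raw library total, counting error alone. Mitochondrially encoded genes took 8.13% to 8.89% of counts in the 6 libraries. On the same raw scale, of the epithelial markers KRT8, KRT18 and KRT19 were abundant (291 CPM in the lowest case), whereas EPCAM did not exceed 0.569 CPM and CDH1 had at most 1 count in a library. The lung markers NKX2-1, SFTPB and SFTPC summed to at most 0.446 CPM, endothelial markers to at most 0.0584 CPM, immune markers to 1.69 to 2.40 CPM, mostly CD14, and fibroblast markers to 3.38 to 5.74 CPM, mostly COL1A1. All other CPM values are after TMM normalization, which scales counts to a library size adjusted for composition. In RNA from whole cultures, a change in every cell and a change in part of the cells cannot be told apart, nor can fewer cells of a kind and less RNA per cell. Members were tested within a fit to all genes (quasi-likelihood test of edgeR on TMM-normalised libraries, with Benjamini-Hochberg adjustment across 15646 genes that passed the low-count filter), and called at an adjusted p under 0.05.

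Promoter sequence is shown first for the pair of receptors with the steepest change, SQSTM1 and OPTN, and for CALCOCO2, which did not pass the test. RefSeq promoter windows (build GRCh38.p14, 250 bases before to 50 after a gene start) were matched by symbol for 9 of the 10 members, in 14 windows. Each line gives the longest stretch, within the 250 bases before a start, that lies under no exon of any gene in GENCODE release 29, read 5′ to 3′ on the plus strand, on which all 3 genes lie. SQSTM1 has 3 windows, of which the most upstream is shown, and OPTN has 2, of which the downstream one is shown. The SQSTM1 stretch shown lies within the span of MGAT4B, which is on the opposite strand. The most downstream SQSTM1 window, chr5:179820655-179820954, lies inside the span given for the gene and is not shown. Its longest such stretch has 52 bases. The last bases of that window, atggcgtcgctcaccgtg, begin with an ATG. The span of a gene covers all its annotated starts, so this position does not make the start a lesser one. Which start H460 cells use was not tested, so the line is not given as the promoter of the counted RNA. Capitals mark a match, on either strand, to TGACNNNGC, the core of the antioxidant response element bound by NRF2.
SQSTM1, chr5:179806335-179806392: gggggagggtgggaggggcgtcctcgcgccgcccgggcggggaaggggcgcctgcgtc
OPTN, chr10:13099959-13100158: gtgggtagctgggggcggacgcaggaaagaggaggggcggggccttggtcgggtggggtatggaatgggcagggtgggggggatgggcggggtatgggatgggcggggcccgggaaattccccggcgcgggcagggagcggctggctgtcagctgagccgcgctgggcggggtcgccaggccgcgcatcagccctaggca
CALCOCO2, chr17:48830785-48830987: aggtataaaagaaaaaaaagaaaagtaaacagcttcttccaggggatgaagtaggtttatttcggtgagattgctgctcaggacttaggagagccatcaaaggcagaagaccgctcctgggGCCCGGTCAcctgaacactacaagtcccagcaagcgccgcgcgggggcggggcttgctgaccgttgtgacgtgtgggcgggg

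In the 300-base windows, TGACNNNGC was found in CALCOCO2, from position -129 relative to the start and on the minus strand (the capitals in its line), and in MAP1LC3B, from position -46 and on the plus strand, as TGACCAGGC, against 13.3% of the 34943 windows of all genes. The E-box CACGTG, in 7.23% of all windows, was found in 0 members. The longer TCACGTGA, which contains the E-box and is bound by TFEB, stands in 0.979% of all windows and was also found in 0 members. TGATGNAA, bound by ATF4 with C/EBP partners, stands in 3.62% of all windows and in 0 members. The counts are over 9 members with 14 windows, whereas the shares are per window, and a difference from those shares was not tested. Both strands were searched, and a match describes letters in the window and not a bound site.

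With fluoxetine, 5 of the 10 members were higher at an adjusted p under 0.05 and 0 were lower. The 5 were SQSTM1, OPTN and NBR1 among the cargo receptors and MAP1LC3B and GABARAPL1 among the ATG8 genes. SQSTM1 rose 2.08-fold and OPTN 1.91-fold, while MAP1LC3B, GABARAPL1 and NBR1 rose 1.35-fold, 1.31-fold and 1.26-fold. Of all 15646 tested genes, 7.76% were called higher and 5.32% lower at this threshold. With a fold change of at least 2 as a further condition, 1 member was higher, SQSTM1, against 1.25% of all genes, and 0 were lower, against 0.147%. The filter on low counts kept 9 members and removed GABARAP. In 7 of the 9, the lowest fluoxetine library lay above the highest control library, as it did in 17.5% of all tested genes, and in 0 of the 9 did the reverse hold, against 14.4%. The 9 log2 fold changes had a median of 0.39, against 0.03 for all genes. At an unadjusted p under 0.05 from edgeR 7 members were higher and 0 lower, against 15.8% and 12.9% of all tested genes, and DESeq2 and limma-voom also called 0 members lower. The 5 were called as well with the counts of all libraries thinned to equal depth. The 15646 keep rows that repeat a symbol with identical counts, so the shares of all genes count some measurements more than once. With 1 row per symbol, added after seeing the data, 14674 were tested, 1221 called higher and 957 lower by edgeR. The median log2 fold change of all genes was then 0.01, and 5 members were called higher. The members were chosen with earlier results of these data known, so these comparisons with all genes are descriptive.

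**Figure D1:**
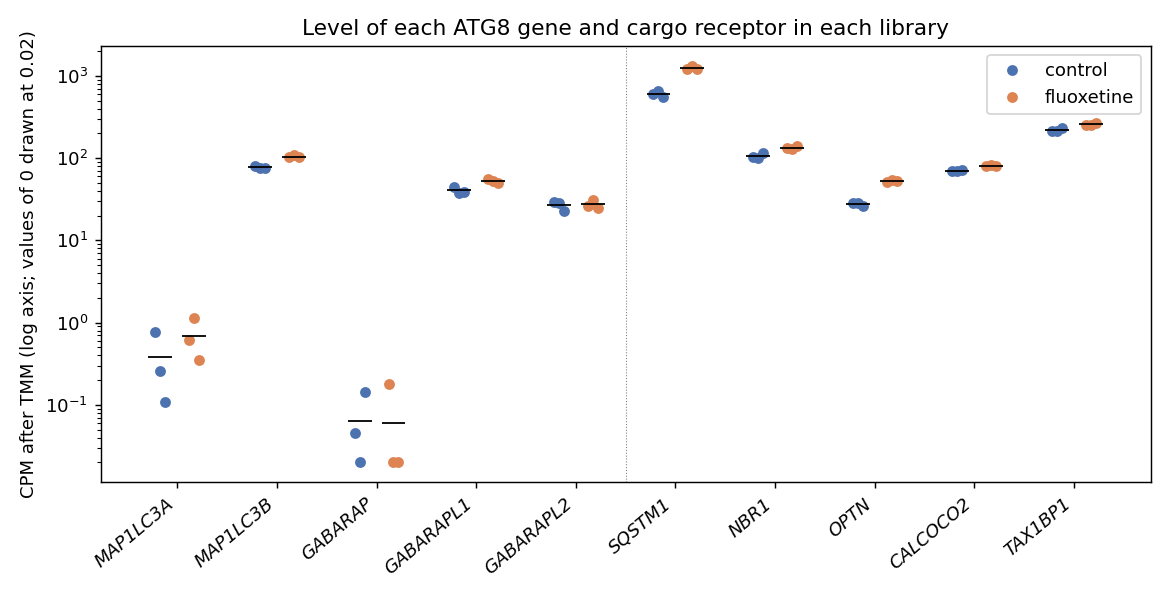
Level of each gene in each library, in CPM after TMM normalization on a log axis. Points are libraries (3 per group), bars are group means, and values of 0 are drawn at 0.02. All fluoxetine points of SQSTM1, OPTN, NBR1, MAP1LC3B, GABARAPL1, CALCOCO2 and TAX1BP1 lie above their control points, while MAP1LC3A and GABARAP sit near the floor of detection.

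Among the cargo receptors, SQSTM1 (ENSG00000161011, chromosome 5, 179806398 to 179838078, plus strand) was the most abundant per length. Control replicates 1 to 3 held 13257, 12511 and 15463 of its counts, and the shallower fluoxetine replicates 1 to 3 held 20091, 22334 and 20767. After normalization these were 601.3, 651.8 and 557.0 CPM against 1220, 1328 and 1209 CPM. The lowest fluoxetine library was thus far above the highest control library. The log2 fold change of 1.05 (standard error 0.08) had a 95% interval of 0.88 to 1.23 on the log2 scale, so the minimum of a 2-fold change lay inside it (edgeR adjusted p = 2.33e-05). The fold change dropped under 2 without control replicate 3 (log2 0.97) and without fluoxetine replicate 2 (log2 0.98), with the adjusted p-value still under 0.05.

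Of the 7654 exonic bases of SQSTM1, 22.0% lie under exons of its neighbours on the opposite strand, 1582 bases under MRNIP at the 3′ end and 105 bases under MGAT4B at the 5′ end. MRNIP, which acts in the DNA damage response, went from 28.01 ± 1.47 to 47.4 ± 2.22 CPM (SD, n = 3 each), 0.76 higher on the log2 scale (edgeR adjusted p = 5.87e-04). MGAT4B, an enzyme of N-glycan branching, had a log2 fold change of 0.43 (edgeR adjusted p = 0.0189). Use of read strand in counting is not given in the sources used here, so the counts of MRNIP, at most 826 in a library, are uncertain, and the part of shared reads in them was not tested.

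OPTN (ENSG00000123240, chromosome 10, 13099449 to 13138308, plus strand) encodes optineurin, a receptor for damaged mitochondria and intracellular bacteria that is switched on by the kinase TBK1. Its levels were 28.8, 28.3 and 26.5 CPM in the control libraries and 52.0, 54.6 and 53.1 CPM in the fluoxetine libraries. The libraries of each group lay close together, and the gap between the groups was far wider than either spread. On the log2 scale the difference was 0.93 (standard error 0.08, 95% interval 0.75 to 1.12, edgeR adjusted p = 9.23e-05), and 0.86 to 0.93 in the fits without 1 library. CCDC3, whose exons cover 2.86% of the exonic bases of OPTN on the opposite strand, had at most 44 counts in a library.

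NBR1 (ENSG00000188554, chromosome 17, 43170481 to 43211689, plus strand) encodes a receptor that resembles p62 in its domains and binds it. Its levels were 102.7, 99.5 and 116.7 CPM in the control group and 133.8, 128.5 and 140.9 CPM in the fluoxetine group. The highest control library, replicate 3, was closer to the lowest fluoxetine library than to control replicate 2. Its log2 fold change of 0.34 (standard error 0.08) passed the test (edgeR adjusted p = 0.0234). The call was lost without control replicate 1 (adjusted p = 0.106), without control replicate 2 (0.156), without fluoxetine replicate 1 (0.124) and without fluoxetine replicate 3 (0.133), all from edgeR, with log2 fold changes of 0.25 to 0.31 in those 4 fits. AC060780.1, a noncoding gene on the opposite strand that lies over 5.51% of the exonic bases of NBR1, stood at 16.4 ± 0.456 and 21.0 ± 3.26 CPM (SD, n = 3 each), with every fluoxetine library above every control library and a log2 fold change of 0.35 (edgeR adjusted p = 0.0919). The part of shared reads was not tested.

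TAX1BP1 (ENSG00000106052, chromosome 7, 27739331 to 27844564, plus strand) and CALCOCO2 (ENSG00000136436, chromosome 17, 48830988 to 48866522, plus strand) encode related receptors, the latter also known as NDP52, that act on bacteria, protein aggregates and mitochondria. TAX1BP1 stood at 214.9, 213.5 and 234.7 CPM in control cells and at 251.2, 255.4 and 271.3 CPM after fluoxetine. CALCOCO2 stood at 70.7, 70.0 and 70.9 CPM and at 79.5, 82.3 and 81.3 CPM. For either gene the groups did not overlap, but neither passed the threshold. For TAX1BP1 the log2 fold change was 0.23 (95% interval 0.07 to 0.39, adjusted p = 0.0578 from edgeR) and that of CALCOCO2 was 0.20 (95% interval 0.05 to 0.36, adjusted p = 0.0874 from edgeR). The upper ends of these intervals, 1.31-fold and 1.28-fold, lie below the lower ends for SQSTM1, 1.84-fold, and for OPTN, 1.68-fold. TAX1BP1 passed the threshold without control replicate 3 (edgeR adjusted p = 0.0309). JAZF1, over 4.53% of the exonic bases of TAX1BP1 on the opposite strand, had a log2 fold change of 0.22 (edgeR adjusted p = 0.297). AC005091.1, over 1.91%, has no entry among the deposited counts.

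**Figure D2:**
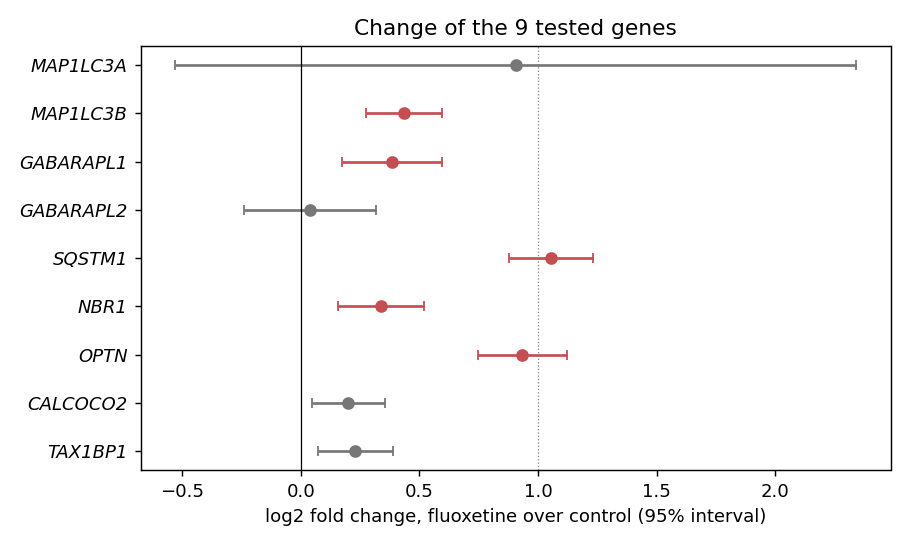
Log2 fold change of fluoxetine over control for the 9 members that passed the filter on low counts, with 95% intervals from edgeR. Red marks an adjusted p under 0.05, and the dotted line a 2-fold change. SQSTM1 (1.05) and OPTN (0.93) stand apart from the other receptors, and MAP1LC3A has an interval of -0.53 to 2.34.

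Among the ATG8 genes, MAP1LC3B (ENSG00000140941, chromosome 16, 87383995 to 87404779, plus strand), which encodes LC3B, was the most abundant per length. Its levels were 79.6, 75.2 and 76.8 CPM in the control libraries and 101.9, 109.0 and 102.2 CPM in the fluoxetine libraries, with no overlap. Its rise of 0.43 on the log2 scale had a 95% interval of 0.28 to 0.59 (standard error 0.07, edgeR adjusted p = 0.00396). It stayed between 0.37 and 0.43 with each library left out, and was called in all 6 of those fits, with adjusted p-values from edgeR of 0.00453 to 0.0425. FBXO31, which shares 150 exonic bases with it on the opposite strand, had a log2 fold change of -0.02 (edgeR adjusted p = 0.927).

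GABARAPL1 (ENSG00000139112, chromosome 12, 10212458 to 10223130, plus strand) belongs to the GABARAP subfamily. Its levels were 44.9, 37.8 and 38.7 CPM in control cells and 55.7, 52.8 and 50.02 CPM after fluoxetine, again without overlap. The difference of 0.39 on the log2 scale (standard error 0.10) passed the test (edgeR adjusted p = 0.0251). The call was lost without control replicate 2 (adjusted p = 0.152), fluoxetine replicate 1 (0.170), fluoxetine replicate 2 (0.0660) or fluoxetine replicate 3 (0.0629), by the same edgeR test, at log2 fold changes of 0.30 to 0.40. AC115676.1, over 8.05% of its exonic bases on the opposite strand, has no entry among the deposited counts. GABARAPL2 (ENSG00000034713, chromosome 16, 75566351 to 75577881, plus strand), also known as GATE-16, stood at 29.2, 28.1 and 22.9 CPM against 26.5, 31.0 and 24.7 CPM, so its groups overlapped. Its log2 fold change of 0.04 had a 95% interval of -0.24 to 0.31 (edgeR adjusted p = 0.879), which leaves out a rise of more than 1.24-fold.

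**Figure D3:**
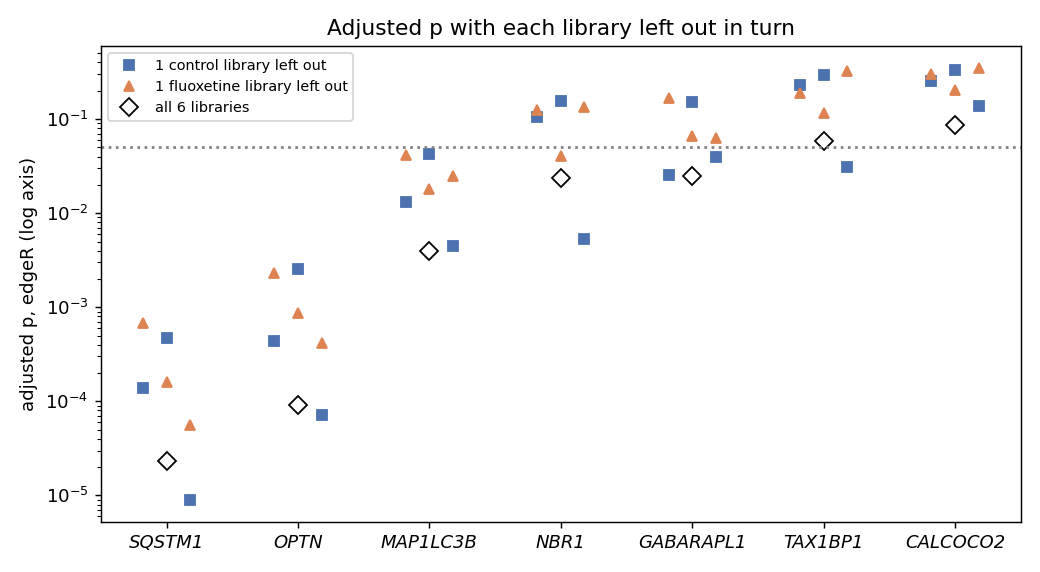
Adjusted p (edgeR), on a log axis, for the 7 members whose groups did not overlap. Diamonds use all 6 libraries, squares leave out 1 control library and triangles 1 fluoxetine library, and the dotted line marks 0.05. SQSTM1, OPTN and MAP1LC3B stay under the line in every fit, NBR1 and GABARAPL1 cross it in 4 of 6 fits each, and TAX1BP1 falls under it in 1.

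MAP1LC3A (ENSG00000101460, chromosome 20, 34546854 to 34560345, plus strand), which encodes LC3A, was barely detected. Control replicates 1 to 3 held 17, 5 and 3 of its counts and fluoxetine replicates 1 to 3 held 10, 19 and 6, with overlap between the groups. The log2 fold change of 0.90 had a 95% interval of -0.53 to 2.34 (edgeR adjusted p = 0.407), so a change was not detectable at this depth. The value ranged from 0.33 to 1.94 over the fits without 1 library. The related genes MAP1LC3B2 and MAP1LC3C, which are not among the members, had at most 8 counts in any library. GABARAPL3, a copy of GABARAPL1 that is listed under 2 identifiers with the same counts, had 1 count in all.

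GABARAP (ENSG00000170296, chromosome 17, 7240014 to 7242770, minus strand), the founding gene of its subfamily, was counted 8 times in all: 1, 0 and 4 times in the control libraries and 3, 0 and 0 times in the fluoxetine libraries. It was therefore not tested. In GENCODE release 29, exons of AC120057.2, which is on the same strand, cover 30.5% of the 2266 exonic bases of GABARAP. AC120057.2 has no entry among the deposited counts. Exons of other genes on either strand, AC120057.2 included, cover 55.7%. A further gene there, AC120057.4 on the opposite strand, had at most 2 counts in a library. How reads on shared exons were assigned is not given in the sources used here, and its part in the low count of GABARAP was not tested, so these counts are given as listed and not as its level of expression.

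Divided by exonic length, SQSTM1 led the family in control cells at 78.8 ± 6.19 CPM per kilobase (SD, n = 3), followed by TAX1BP1 at 24.1 ± 1.29, MAP1LC3B at 14.5 ± 0.426 and NBR1 at 12.6 ± 1.09. GABARAPL1, at 9.90 ± 0.948, GABARAPL2, at 8.81 ± 1.10, and CALCOCO2, at 8.46 ± 0.0574 CPM per kilobase, came next, and each overlapped its neighbour in this order. OPTN was the lowest of the well-detected members at 5.42 ± 0.241 CPM per kilobase, below every library of CALCOCO2. After fluoxetine, the first 5 places were unchanged, led by SQSTM1 at 163.6 ± 8.62 CPM per kilobase. OPTN, at 10.4 ± 0.257 CPM per kilobase, stood sixth there, above every fluoxetine library of CALCOCO2 (9.72 ± 0.166) though overlapping GABARAPL2 (9.03 ± 1.07). Without division by length, CALCOCO2 stood above OPTN after fluoxetine, at 81.0 ± 1.38 against 53.2 ± 1.32 CPM (SD, n = 3 each). Their order per length thus rests on the union of annotated exons, which need not be the length of the counted RNA. By mean level per length over the 6 libraries, SQSTM1 ranked 270 among 31635 genes with a known length. MAP1LC3A, at most 0.641 CPM per kilobase in any library, was the lowest in both groups, leaving out GABARAP, whose listed counts are not taken as its level.

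The make-up of each class was compared as the share of each gene in the summed level per length. The summed cargo receptor level was 129.5 ± 4.25 CPM per kilobase (SD, n = 3) in control cells and 228.0 ± 8.04 (SD, n = 3) after fluoxetine, 1.76-fold, and that of the ATG8 genes as counted was 33.5 ± 2.30 and 42.0 ± 2.23, 1.26-fold. SQSTM1 made up 61.2%, 63.5% and 57.8% of the receptor sum in the control libraries and 71.7%, 73.2% and 70.4% in the fluoxetine libraries. TAX1BP1 made up 18.7% ± 1.52 (SD, n = 3) in control and 12.4% ± 0.726 (SD, n = 3) in fluoxetine libraries, NBR1 9.79% ± 1.13 and 7.02% ± 0.526, and CALCOCO2 6.54% ± 0.256 and 4.27% ± 0.0949. OPTN made up 4.19% ± 0.160 and 4.54% ± 0.0625, so that it and SQSTM1 had the larger share in fluoxetine libraries and the other 3 receptors the smaller. For all 5 receptors the groups did not overlap, with a two-sided exact permutation p of 0.1, the smallest that 3 libraries against 3 can give. The shares are parts of 1 sum, so these are not 5 independent results. A larger share of SQSTM1 makes the others smaller, and the levels of TAX1BP1, NBR1 and CALCOCO2 themselves were higher in every fluoxetine library.

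In the ATG8 sum, MAP1LC3B made up 43.5% ± 2.09 (SD, n = 3) in control and 46.8% ± 1.39 (SD, n = 3) in fluoxetine libraries, and GABARAPL1 29.5% ± 1.22 and 30.8% ± 1.65. These groups overlapped (two-sided exact permutation p = 0.2 and 0.4). GABARAPL2 took 26.7%, 28.3% and 23.9% of the sum in control cells and 20.8%, 23.1% and 20.4% after fluoxetine, with no overlap (two-sided exact permutation p = 0.1, the smallest possible here). Its own level had a log2 fold change of 0.04, so its share was smaller within a larger sum. MAP1LC3A held at most 1.45% in any library. GABARAP is nearly missing from this sum because of its listed counts, so the shares describe the counted ATG8 genes.

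**Figure D4:**
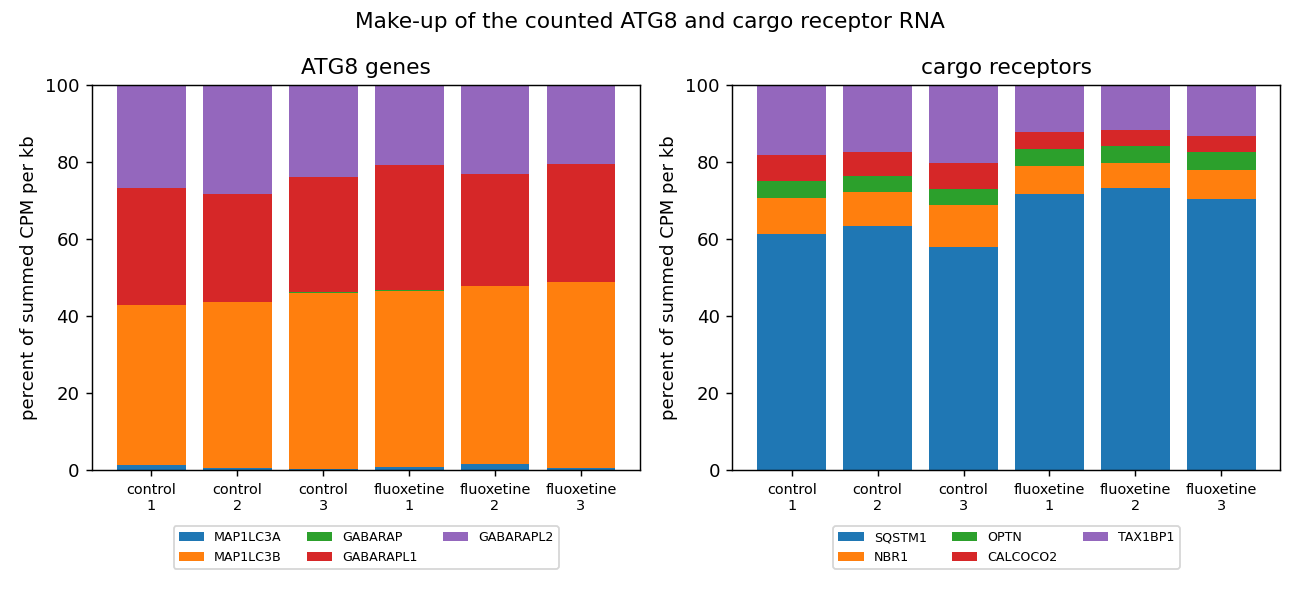
Share of each gene in the summed level per length (percent of summed CPM per kilobase) of the 5 ATG8 genes, left, and the 5 cargo receptors, right, in each of the 6 libraries. SQSTM1 fills 57.8% to 63.5% of the receptor bars in control and 70.4% to 73.2% in fluoxetine libraries, and GABARAPL2 narrows from 23.9% to 28.3% to 20.4% to 23.1% of the ATG8 bars.

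The other genes of the route were taken from 4 lists written from general knowledge, of which 54 of 55 genes were tested. Earlier results of these data were known when the lists were chosen, so comparisons with all genes are descriptive. At an adjusted p under 0.05, 12 of the 54 were higher and 1 lower with fluoxetine, where 7.76% and 5.32% of all genes were, and 0 of those called reached a 2-fold change. Their median log2 fold change was 0.16. Among the enzymes that make ATG8 ready for the membrane there was no call. Of ATG4A, ATG4B, ATG4C and ATG4D, which trim ATG8, ATG7 and ATG3, which hand it on, ATG10, which joins ATG12 to ATG5, and ATG12, ATG5, ATG16L1 and ATG16L2, of the machinery that places ATG8 on the membrane, 0 of 11 were called in either direction by edgeR, DESeq2 or limma-voom, and 0 had an unadjusted p under 0.05 from edgeR, where 15.8% of all genes were higher and 12.9% lower. Their log2 fold changes lay between -0.19 (ATG4C) and 0.17 (ATG10), with a median of -0.04.

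Among the other selective autophagy receptors, 5 of 18 tested genes were higher and 1 lower, with a median log2 fold change of 0.14. Of all tested genes, 7.76% were called higher and 5.32% lower. BNIP3L, a receptor of mitochondria also called NIX, stood at 20.6 ± 1.42 CPM in control and 39.9 ± 0.429 CPM in fluoxetine libraries (SD, n = 3 each), a rise of 0.95 on the log2 scale (edgeR adjusted p = 1.56e-04). RETREG1, which shapes and targets tubules of the endoplasmic reticulum for autophagy, stood at 23.1 ± 0.730 and 43.9 ± 2.26 CPM (SD, n = 3 each), a rise of 0.92 (edgeR adjusted p = 1.47e-04). TOLLIP, a ubiquitin-binding adaptor, and CALCOCO1, a relative of CALCOCO2 that acts on the endoplasmic reticulum and Golgi, rose by 0.88 and 0.79 on the log2 scale (adjusted p = 0.00519 and 0.00184 from edgeR). RETREG2, a relative of RETREG1, rose by 0.33 (edgeR adjusted p = 0.0170). PHB2, a protein of the inner mitochondrial membrane that can act as a receptor, fell by 0.36 on the log2 scale (edgeR adjusted p = 0.0473), with overlapping libraries. PHB2 and RETREG2 lost their calls without control replicate 1, control replicate 2, fluoxetine replicate 1 or fluoxetine replicate 3, at edgeR adjusted p-values of 0.0811 to 0.195 and 0.0778 to 0.121. TOLLIP lost its call without fluoxetine replicate 1 (edgeR adjusted p = 0.0539).

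The ATG8-binding adaptors of transport and fusion had the highest median of the 4 lists, 0.32. All 14 of their log2 fold changes were above 0, as were 8479 of all 15646 tested. In this list 6 genes were called higher and 0 lower, against 7.76% and 5.32% of all tested genes. TP53INP1, which binds ATG8 and is a target of p53, rose by 0.95, WDR81, a partner of p62 in aggregate clearance, by 0.93, EPG5, a tether of autophagosomes to late endosomes, by 0.93, and PLEKHM1, an adaptor of lysosome fusion, by 0.57 on the log2 scale (edgeR adjusted p-values of 8.13e-04 to 0.00504). The call of PLEKHM1 was lost without fluoxetine replicate 1 (edgeR adjusted p = 0.0548). JMY, a nucleator of actin at the autophagosome, rose by 0.65 (edgeR adjusted p = 0.0108) and TP53INP2 by 0.47 (edgeR adjusted p = 0.0408), but JMY was not called without control replicate 1, control replicate 2 or fluoxetine replicate 1 (edgeR adjusted p = 0.0530 to 0.0754). TP53INP2 was called in 1 of the 6 fits that left out a library, the one without control replicate 1, with edgeR adjusted p-values of 0.0633 to 0.171 in the others, and it was also not called with RLE normalization (0.0534) or at equal depth (0.0719). STX17, the SNARE of autophagosome fusion, had a log2 fold change of 0.33 and did not pass (edgeR adjusted p = 0.282).

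Among the partners and regulators of the cargo receptors, 1 gene of 11 was called higher and 0 lower. Of all tested genes, 7.76% were called higher and 5.32% lower, so this count was near the share of all genes. The called gene was RB1CC1, also called FIP200, a scaffold of the initiation complex that receptors recruit. It stood at 34.2 ± 5.37 and 49.1 ± 4.49 CPM (SD, n = 3 each), 0.52 higher on the log2 scale (edgeR adjusted p = 0.0209). The call was lost without control replicate 1, control replicate 2, fluoxetine replicate 1 or fluoxetine replicate 3 (edgeR adjusted p = 0.0851 to 0.119). TBK1, which phosphorylates OPTN and p62, had a log2 fold change of 0.10 (edgeR adjusted p = 0.411). NFE2L2, which encodes NRF2, had 0.14 (adjusted p = 0.239) and KEAP1, the repressor of NRF2 that p62 binds, had -0.18 (adjusted p = 0.324), by the same edgeR test.

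**Figure D5:**
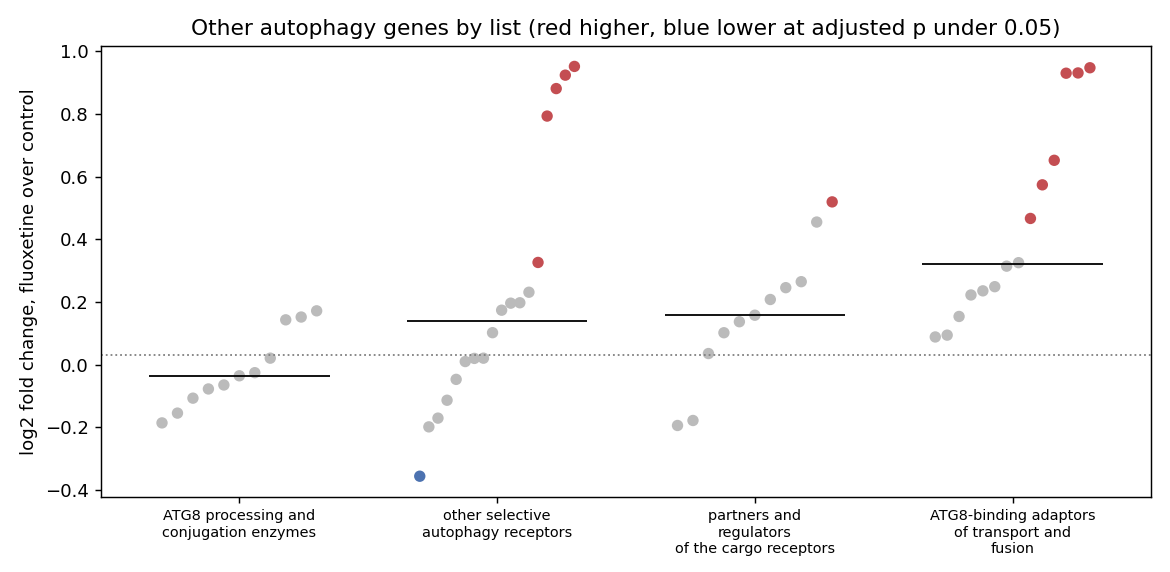
Log2 fold change of fluoxetine over control for the 54 tested genes of the 4 lists, 1 point per gene, sorted within each list. Red marks genes called higher and blue genes called lower at an adjusted p under 0.05, black bars are list medians and the dotted line is the median of all tested genes (0.03). The conjugation enzymes hold 0 called genes, and the adaptors of transport and fusion lie above 0 throughout.

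By the root mean square difference of centred log2 CPM over the 6 libraries, the tested genes whose pattern was most like that of SQSTM1 were KCNAB2 (0.045), MTX1P1 (0.071), FLCN (0.072), SLC38A7 (0.073) and OPTN (0.082), with log2 fold changes of 0.93 to 1.16. KCNAB2 encodes a potassium channel subunit, FLCN the lysosomal regulator folliculin and SLC38A7 a lysosomal amino acid transporter, and MTX1P1 is a pseudogene whose reads may belong to MTX1. OPTN, itself a member, was thus among the 5 nearest. The genes most like MAP1LC3B were IRS2 (0.022), CETN2 (0.022), ZFPM2-AS1 (0.023), TFPI (0.023) and PLA2G7 (0.028), with log2 fold changes of 0.40 to 0.46. These are descriptions over 6 libraries that all share the group difference.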

How the data were processed

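Total RNA of H460 cells was sequenced as paired-end Illumina reads. The authors deposited 1 table of raw counts per gene and library, not normalized or pooled, beside the log2 fold change and p-values of their own comparison, which were not used here. The submitters' processing notes name fastp 0.20.0, HISAT2 2.1.0, HTSeq 0.10.0 and DESeq2 1.18.1. The genome build and the counting mode are not given in the sources used here, and GENCODE release 29 (GRCh38) held 31635 of the genes, 96.8% at the same start and end. In the table, 126 symbols stand on 1643 rows, with identical counts on all rows of a symbol.

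Deposited counts were tested with edgeR 4.0.16 under R 4.3.3 (filterByExpr, TMM, quasi-likelihood). CPM is after TMM except for the markers and the count floor, which use the raw total, and exonic length is the union of GENCODE exons. The standard error is the log2 fold change over the square root of F, and 95% intervals use the moderated degrees of freedom. Shares were tested by an exact permutation test over libraries. Alternatives were DESeq2 1.42.0, limma-voom (limma 3.58.1), other normalizations and filters, equal depth, a block for the replicate number, fits without each library in turn, and, added after seeing the data, 1 row per symbol. The scripts were tested on simulated counts. The members and lists were chosen with earlier results of these data known. The rule for named genes took all members, the related genes MAP1LC3B2, MAP1LC3C and GABARAPL3, and every gene whose position overlaps a member. Of the overlapping genes, only those that share exonic bases with a member are named here, a limit that was not in the rule. In each list the rule took the up to 4 called genes with the smallest p-values and any called gene that was lower or changed at least 2-fold. It also took the 5 genes most like SQSTM1 and the 5 most like MAP1LC3B. RETREG2, JMY, TP53INP2 and the genes named without a call were added after their values were seen.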

Additional observations from a re-analysis of the deposited data

How the results depend on the processing

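SQSTM1, OPTN and MAP1LC3B kept their direction and their call under each of the 15 alternatives. With a library left out, the number of members called higher ranged from 3 to 6, and it was 5 or 6 under the other alternatives. GABARAPL1 had log2 fold changes of 0.30 to 0.43 and NBR1 of 0.25 to 0.38 in the fits that left out a library, and each was called in 2 of those 6. TAX1BP1 passed the threshold with library size alone as normalization (log2 fold change 0.25) and with the replicate number as a block (0.23), and ranged from 0.17 to 0.24 with a library left out. GABARAPL2 ranged from -0.10 to 0.0859, turning negative without control replicate 3 or fluoxetine replicate 2. GABARAP, tested only with no filter on low counts, had -0.22 (edgeR adjusted p = 0.948), and the difference in its share of the ATG8 sum, -0.02 percentage points, lay between -0.0856 and 0.0361 with a library left out, positive without control replicate 3 (0.0361), fluoxetine replicate 2 (0.0101) or fluoxetine replicate 3 (0.0101). MAP1LC3A had no value with at least 10 counts in every library, and no adjusted p from DESeq2.

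For the 4 lists together, the genes called higher ranged from 6 (without fluoxetine replicate 1) to 15 and those called lower from 0 to 2 with a library left out. Under the other alternatives the genes called higher ranged from 11 to 18, the 18 with the replicate block. With limma-voom or library size alone, 0 genes were called lower, PHB2 being the 1 lost. With a library left out, the other receptors called higher ranged from 3 to 5 and called lower from 0 to 1. In the same fits the adaptors called higher ranged from 3 to 7, and the receptor partners called higher from 0 to 3 and lower from 0 to 1. Under the other alternatives the other receptors called higher numbered 5 or 6 and the adaptors 5 to 9, the 9 with the replicate block. The partners called higher numbered 2 with DESeq2, library size alone or no filter, and 3 with the replicate block. The cause of these changes was not tested.

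Same-numbered libraries deviated from their group means with correlations of 0.03, 0.116 and 0.392 over 15646 genes. For differently numbered libraries the correlations ranged from -0.38 to 0.32. These ranges overlap, so the values do not settle whether the numbers are pairs, and the main fit did not take them as pairs. The block raised the genes called from 1214 to 2231 higher and from 833 to 1787 lower. Over all genes, the fit without fluoxetine replicate 1 called 409 higher and 163 lower, and that without control replicate 3 called 1627 and 2006. The share of calls that were higher was 59.3% in all 6 libraries and between 44.8% and 71.5% over the alternatives. At these depths a change of MAP1LC3A was not detectable, and GABARAP was too rarely counted to test.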

Other observations

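UBB, which encodes ubiquitin, the mark on the cargo that the receptors bind, was on the partner list and was not called. It stood at 87.3 ± 4.68 CPM in control and 76.3 ± 5.70 CPM in fluoxetine libraries (SD, n = 3 each), -0.19 as log2 fold change (edgeR adjusted p = 0.155), with every fluoxetine library below every control library. It was chosen after its values were seen.

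BNIP3L and BNIP3, closely related receptors of mitochondria, had different values. The log2 fold change of BNIP3 was -0.11 (edgeR adjusted p = 0.430), from 167.3 ± 12.8 to 154.6 ± 12.2 CPM (SD, n = 3 each), while that of BNIP3L was 0.95. The difference between them was not tested.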
